A study of Mus musculus with 4 samples.

Results

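Genes for the attachment of meiotic telomeres to the nuclear envelope, and for the protein bridge across it, were examined in RNA sequencing of mouse testes at postnatal day 10 (P10). They are 9 of the 55820 loci in the count table and were taken by symbol. The list holds *Sun1*, *Sun2*, *Spag4*, *Ccdc155* (KASH5), *Terb1*, *Terb2*, *Majin*, *Spdya* and *Cdk2*. *Spag4* encodes a protein best known from the nuclear envelope of spermatids and is included in all counts given for the list. The libraries came from whole testes of male C57BL/6J mice, 2 from controls and 2 from Mps1sKO mice, and the labels describe the libraries of each condition as biological replicates. In Mps1sKO mice, *Stra8*-cre removes floxed *Mps1*, whose gene symbol is *Ttk*, in germ cells from early spermatogonia up to preleptotene spermatocytes. Somatic cells of these testes keep the gene. Whether the controls carried the floxed allele or the Cre, and whether testes were pooled for a library, is not given in the sources used here.

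In meiotic prophase, the ends of the chromosomes attach to the inner face of the nuclear envelope and are moved along it, which helps homologous chromosomes find each other. TERB1, TERB2 and MAJIN form the complex that joins the telomere to the inner membrane. SUN1, with SUN2, spans the inner membrane and binds KASH5 in the outer membrane, and KASH5 recruits the motor dynein on the cytoplasmic side. This bridge is known as the LINC complex. CDK2, activated by Speedy A (the product of *Spdya*), sits at the attached telomeres and is needed for a stable attachment. Spermatocytes first enter this stage at about the age sampled here.

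*Ccdc155*, *Terb1*, *Terb2* and *Spag4* had mean levels of 59.1% to 67.8% of control in Mps1sKO testes, and for each of them both Mps1sKO libraries lay below both control libraries. *Sun1*, *Sun2* and *Cdk2*, which many tissues express, had levels of 96.2%, 96.4% and 104% of control. *Spdya* had a mean of 78.0% of control with widely spread control libraries. *Majin* was at or under 2 counts in every library. Levels are given as CPM, counts scaled to 1 common library size with TMM factors, and differences are log2 fold changes of Mps1sKO relative to control.

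**Figure D1:**
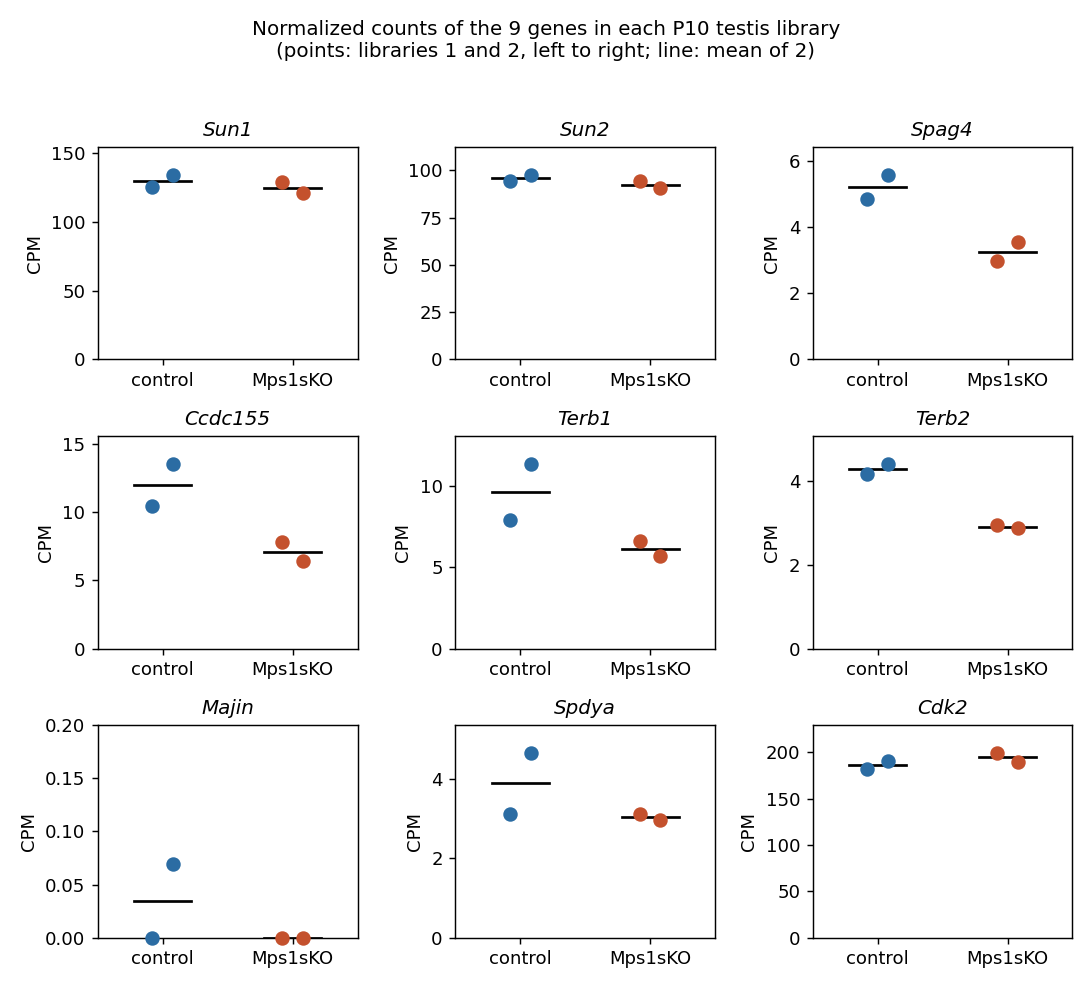
Normalized counts (CPM, linear axes starting at 0) of the 9 genes, with 1 point for each library, libraries 1 and 2 from left to right, and a line at the mean of the 2. The Mps1sKO points of *Ccdc155*, *Terb1*, *Terb2* and *Spag4* lie below both control points, those of *Sun1* and *Cdk2* overlap with control, and *Majin* lies at or near 0.

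The sequence upstream of the transcription start is shown for 3 of the genes with lower levels and for 2 of those with levels near control, because the base composition of these stretches differed between the genes. They were picked with levels and composition known, and the stretches of *Sun2* and *Spdya* and the second start of *Sun1* are not printed. The RefSeq table (GRCm38.p6) held a start for 7 of the 9 genes, with *Ccdc155* under its newer symbol *Kash5*, and *Terb2* and *Majin* were not matched. The bases are printed 5′ to 3′ on the gene's strand, in lower case with each CG dinucleotide in capitals, and bases covered by an annotated exon are left out.
*Ccdc155*, chr7:45204893-45205142, minus strand: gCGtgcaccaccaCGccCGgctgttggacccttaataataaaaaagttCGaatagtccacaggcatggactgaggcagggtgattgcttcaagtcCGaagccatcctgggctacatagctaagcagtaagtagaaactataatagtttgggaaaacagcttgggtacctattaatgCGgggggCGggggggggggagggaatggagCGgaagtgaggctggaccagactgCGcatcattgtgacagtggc
*Terb1*, chr8:104509911-104510137, minus strand: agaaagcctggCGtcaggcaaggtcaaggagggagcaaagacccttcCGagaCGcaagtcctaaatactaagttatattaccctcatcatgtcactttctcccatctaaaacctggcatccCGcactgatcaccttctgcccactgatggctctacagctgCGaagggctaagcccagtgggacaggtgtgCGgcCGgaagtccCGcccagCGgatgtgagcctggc
*Spag4*, chr2:156064963-156065174, plus strand: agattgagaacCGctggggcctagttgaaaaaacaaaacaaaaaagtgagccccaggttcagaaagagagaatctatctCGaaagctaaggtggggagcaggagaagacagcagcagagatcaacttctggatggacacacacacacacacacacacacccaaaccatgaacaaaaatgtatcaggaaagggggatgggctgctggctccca
*Sun1*, chr5:139200387-139200636, plus strand: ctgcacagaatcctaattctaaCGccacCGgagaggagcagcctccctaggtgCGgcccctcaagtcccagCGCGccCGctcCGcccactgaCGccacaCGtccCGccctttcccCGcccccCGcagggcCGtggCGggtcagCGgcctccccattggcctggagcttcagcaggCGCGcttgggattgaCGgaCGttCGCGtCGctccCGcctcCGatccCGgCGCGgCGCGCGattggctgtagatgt
*Cdk2*, chr10:128705052-128705179, minus strand: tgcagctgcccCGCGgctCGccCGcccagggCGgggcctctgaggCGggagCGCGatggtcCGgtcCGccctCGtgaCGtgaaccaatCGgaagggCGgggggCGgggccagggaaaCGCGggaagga

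Over the full 250 bases upstream of the start, *Spag4*, *Ccdc155* and *Terb1* had 7, 9 and 13 CG dinucleotides. *Cdk2*, *Sun1*, *Sun2* and *Spdya* had 21, 30, 31 and 33, with the first of the 2 listed starts taken for *Sun1*, whose second start had 1. *Spdya*, with a mean level of 78.0% of control, thus had the most of the 7 genes. A link between composition and level was not tested. The median over 32851 such windows was 6. The motif CNCCTCAG, described for the meiotic regulator STRA8, was searched on both strands and was found in *Cdk2* alone among the 7 genes, and in 6.42% of all windows. The E-box CACGTG was found in none of them, and in 6.02% of all windows. The E2F core GCGGGA was present at 3 places in *Cdk2*, at 2 in *Terb1*, at 2 in *Sun1* and at 1 in *Spdya*, and 16.9% of all windows held it. In *Cdk2* 1 of the E2F matches shares bases with the CNCCTCAG match. A match of letters is a description and does not show that a factor binds there.

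Each library held between 23311689 and 28607746 counts, and mitochondrial genes took 2.52% to 3.14% of them. Libraries of the same genotype were further apart than counting error alone would place them (chi-square divided by its degrees of freedom, 8.49 in control and 11.6 in Mps1sKO). *Ttk*, the targeted gene, was at 27.9 and 32.6 CPM in control and at 13.0 and 12.2 CPM in Mps1sKO testes, in the direction the labels give. Its difference was −1.26 on the log2 scale, with an adjusted p of 0.0461 from edgeR that was over 0.05 in 5 of 12 alternative analyses. The markers of germ cells and Sertoli cells were present, apart from *Rhox5*, a gene of Sertoli cells, which had 1 count in 1 control library and 0 in the other libraries. The 5 spermatid markers had 0 to 13 counts per library.

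Genotypes were compared by the quasi-likelihood test of edgeR (two-sided) over the 20561 loci that passed a filter on low counts, 8 of the 9 genes among them. The median log2 fold change over these 8 was −0.46, where the median of all tested loci was 0.00027. At an adjusted p below 0.05, 0 of the 8 were called with edgeR, and 0 with DESeq2 and with limma-voom. Of all loci 0.0292% were called lower and 0% higher with edgeR, and 0.0766% lower and 0.0199% higher with DESeq2. Shares with DESeq2, here and below, are over the 35262 loci with any count. Many of these have too few counts for the filter, so these shares are not on the same base as those with edgeR. At an unadjusted p below 0.05, 4 of the 8 were lower with edgeR (*Ccdc155*, *Terb1*, *Terb2* and *Spag4*), against 5.37% of all loci, and 0 were higher. The cut-offs used in the study, a fold change over 1.5 with an unadjusted p below 0.01, were met by *Ccdc155* and *Spag4*, so 2 genes were lower at a background of 0.681%, and 0 higher at a background of 0.146%. For 6 of the 8, both Mps1sKO libraries lay below both controls, against 21.1% of all loci, and for 0 of them both lay above, against 20.3%. Among these 6, the lower control and the higher Mps1sKO library were nearly equal for *Sun2* and for *Spdya*. With 2 libraries against 2, an exact permutation test cannot go below p = 0.333, so single genes were tested only in models across all loci. These p-values set the genotype difference against the spread between libraries of a genotype, which is estimated partly from all tested loci. They rest on these 4 libraries alone.

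The size of these differences depended on which control library was kept, more for some genes than for others. Leaving out control replicate 2 moved the log2 fold change of *Spdya* from −0.36 to −0.045, of *Terb1* from −0.66 to −0.38 and of *Ccdc155* from −0.76 to −0.56. *Terb2* (−0.56 to −0.52) and *Spag4* (−0.68 to −0.57) moved less without that library. Without it the median was −0.21, 0 genes met the cut-offs of the study, against 0.469% of all loci lower in that fit, and 2 were lower at an unadjusted p below 0.05 with edgeR, against 2.28%. Without control replicate 1 the median was −0.61, and *Ccdc155* and *Terb1* were lower at an adjusted p below 0.05 with edgeR, while the share of all loci so called was 0.587% in that fit. In that fit 3 genes met the cut-offs of the study, against 1.51% of all loci. Without Mps1sKO replicate 2, 1 gene met them, against 0.898%.

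**Figure D2:**
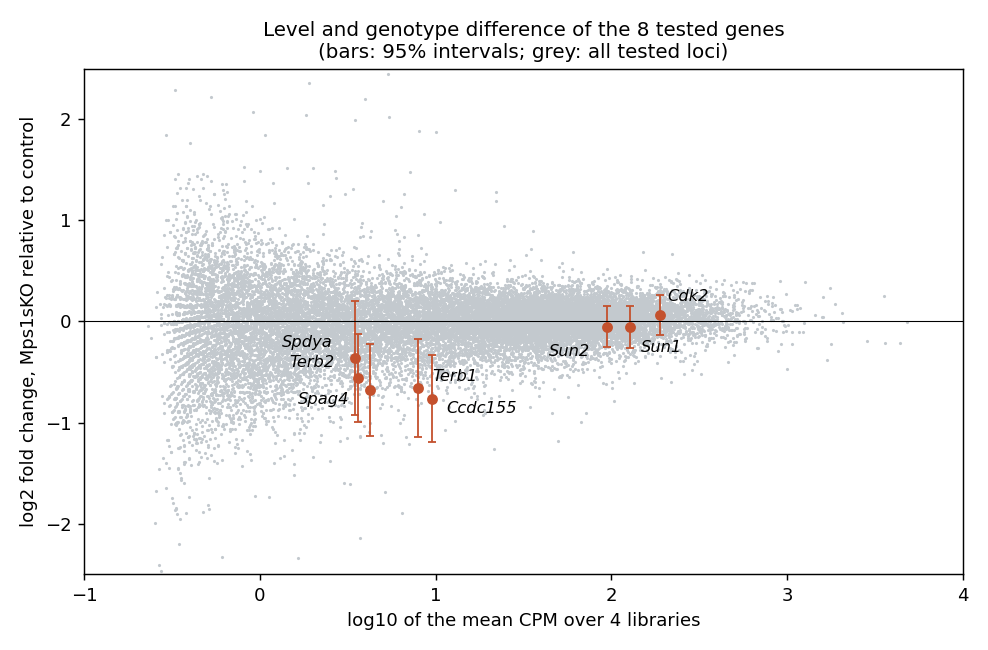
Log2 fold change of Mps1sKO relative to control against the log10 of the mean CPM over the 4 libraries, for the 8 tested genes (points with 95% intervals from edgeR) and all tested loci (grey), of which 11 lie beyond the vertical axis. The intervals of *Ccdc155*, *Terb1*, *Terb2* and *Spag4* lie below 0, and those of *Spdya*, *Sun1*, *Sun2* and *Cdk2* include 0.

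Among the parts of the bridge across the envelope, *Ccdc155* (ENSMUSG00000038292), which encodes KASH5, lies on chromosome 7 from 45183624 to 45204892. Its levels were 10.4 and 13.5 CPM in control and 7.77 and 6.38 CPM in Mps1sKO testes. All Mps1sKO values were below the lower control value, and the means were 12.0 ± 2.18 and 7.07 ± 0.981 CPM (SD, n = 2 each). The log2 fold change was −0.76 (standard error 0.186), with an unadjusted p of 0.00378 and an adjusted p of 0.494 from edgeR. Leaving out any 1 library gave values from −0.94 to −0.56, and the unadjusted p was below 0.05 in all 12 alternative analyses. With DESeq2, the tool of the study, *Ccdc155* was the 1 member that met the study's cut-offs, against 0.267% of all loci lower and 0.0681% higher.

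*Sun1* (ENSMUSG00000036817), on chromosome 5 from 139200637 to 139249840, encodes the main inner membrane partner of KASH5. Its control libraries had 125 and 134 CPM and its Mps1sKO libraries 129 and 121 CPM, so the groups overlapped. The 95% interval of the ratio of Mps1sKO to control was 0.832 to 1.11 (log2 fold change −0.056, adjusted p = 0.873 from edgeR). *Sun2* (ENSMUSG00000042524), on chromosome 15 from 79724070 to 79742536, encodes the second inner membrane protein of the bridge. It had 94.2 and 97.7 CPM in control and 94.2 and 90.9 CPM in Mps1sKO testes, with the lower control and the higher Mps1sKO library nearly equal. The interval of its ratio was 0.839 to 1.11 (log2 fold change −0.052, adjusted p = 0.875 from edgeR). A fall of *Sun1* or *Sun2* to the level seen for *Ccdc155*, 59.1% of control, lies outside these intervals, although this does not test the genes against each other. The intervals hold for RNA of the whole testis and do not give the levels of *Sun1* and *Sun2* in germ cells alone.

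*Spag4* (ENSMUSG00000038180), on chromosome 2 from 156065175 to 156070617, encodes SUN4, a SUN protein best known from the nuclear envelope of spermatids. Control testes gave 131 and 161 counts of it and Mps1sKO testes 69 and 95. In CPM these were 4.86 and 5.58 against 2.98 and 3.55, and the groups did not overlap. Its difference was −0.68 on the log2 scale (standard error 0.197), with an unadjusted p of 0.00953 and an adjusted p of 0.494 from edgeR. Its unadjusted p was below 0.05 in all 12 alternative analyses, but with DESeq2 it was 0.0363 and the study's cut-offs were not met. With that tool 3 of the 8 genes, *Ccdc155*, *Terb1* and *Spag4*, were lower at an unadjusted p below 0.05, against 1.69% of all loci, and 0 were higher, against 1.51%. Annotated exons cover 88.8% of the span of *Spag4*, so reads of unspliced RNA could enter its count.

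Of the complex at the telomere, *Terb1* (ENSMUSG00000052616), on chromosome 8 from 104446719 to 104509910, encodes the subunit that binds the telomere protein TRF1. It had 7.95 and 11.4 CPM in control and 6.60 and 5.67 CPM in Mps1sKO testes. The control libraries differed 1.43-fold from each other, which is nearly as large as the difference between the genotypes. On the log2 scale the difference was −0.66 (standard error 0.209), with an unadjusted p of 0.0147 from edgeR and 0.0145 from DESeq2, and adjusted p-values of 0.497 and 0.618. Without control replicate 2 it was −0.38 with an unadjusted p of 0.138 from edgeR.

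*Terb2* (ENSMUSG00000027229), on chromosome 2 from 122186272 to 122206397, encodes the subunit between TERB1 and MAJIN. It had few counts, 112 and 127 in control and 68 and 77 in Mps1sKO libraries, but the libraries of each genotype were close together, at 4.16 and 4.40 CPM and at 2.93 and 2.87 CPM. Both Mps1sKO values were thus well below both control values. The log2 fold change was −0.56 (standard error 0.189), with an unadjusted p of 0.019 and an adjusted p of 0.4999 from edgeR. The unadjusted p was 0.102 with DESeq2, 0.0798 without control replicate 2 and 0.0554 without Mps1sKO replicate 2, while leaving out any 1 library gave log2 fold changes from −0.60 to −0.52.

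*Majin* (ENSMUSG00000024786), on chromosome 19 from 6184388 to 6224225, encodes the membrane-anchored subunit of the same complex. In control testes it was counted 0 and 2 times and in both Mps1sKO libraries 0 times, and it did not pass the filter. A floor of 3 counts per library corresponds for *Majin* to 0.0634 to 0.0789 FPKM (CPM per kilobase of transcript) and covers counting error only. All 4 libraries lay under this floor, so no fold change is given. In the control libraries its partners *Terb1* and *Terb2* had 2.58 ± 0.646 and 2.02 ± 0.0817 FPKM (SD, n = 2 each).

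*Spdya* (ENSMUSG00000052525), the activator of CDK2 at telomeres, lies on chromosome 17 from 71552061 to 71589533. Control libraries held 84 and 134 counts of it and Mps1sKO libraries 72 and 79, which is 3.12 and 4.65 against 3.11 and 2.95 CPM. The lower control library and the higher Mps1sKO library were nearly equal, and the control libraries differed 1.49-fold. Its log2 fold change had a 95% interval of −0.92 to 0.20 around −0.36 (adjusted p = 0.657 from edgeR), and it was −0.045 without control replicate 2 and −0.62 without control replicate 1. Of its exonic bases, 402 (18.3%) overlap *Trmt61b* on the other strand and 250 (11.4%) overlap *Mettl4-ps1*. Whether reads were counted by strand is not given in the sources used here, so reads of *Spdya* and *Trmt61b* in the shared bases may not have been told apart. The counts of *Trmt61b* were 141 and 180 in control against 162 and 165 in Mps1sKO libraries.

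*Cdk2* (ENSMUSG00000025358), the kinase itself, lies on chromosome 10 from 128697939 to 128705031 and also acts in the mitotic cell cycle of many cell types. Its control libraries had 182 and 191 CPM and its Mps1sKO libraries 199 and 190 CPM. The lower Mps1sKO library lay between the control libraries. The ratio had a 95% interval of 0.908 to 1.20 (log2 fold change 0.062, adjusted p = 0.845 from edgeR). Annotated exons cover 87.7% of its span. For the other members, overlaps with other loci took at most 3.98% of the exonic bases.

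Per length of transcript, *Cdk2*, *Sun2* and *Sun1* had the highest levels of the 9 genes in control testes. *Cdk2* was highest with 30.0 ± 1.03 FPKM, followed by *Sun2* with 17.7 ± 0.456 and *Sun1* with 17.1 ± 0.847 FPKM (SD, n = 2 each). *Sun2* and *Sun1* overlapped between libraries. *Ccdc155* came next with 5.06 ± 0.923 FPKM, then *Terb1* and *Terb2*, whose means differed by less than the SD of *Terb1*. *Spdya* with 1.77 ± 0.491 FPKM overlapped with *Terb2*, and *Spag4* was below both with 1.08 ± 0.105 FPKM (SD, n = 2 each). In Mps1sKO testes the order was the same except that *Spdya*, at 1.38 FPKM, and *Terb2*, at 1.37 FPKM, traded places within their spread.

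Markers of germ cells were lower in Mps1sKO testes as well. The 8 germ cell markers, among them *Ddx4* and *Dazl*, summed to 1248 and 1465 CPM in control and to 1162 and 879.6 CPM in Mps1sKO libraries, and all 8 were lower, from −0.51 to −0.35 on the log2 scale. A list of 15 genes of the meiotic chromosome axis and of synapsis summed to 706 and 911 CPM in control and to 595 and 493 CPM in Mps1sKO libraries. In both lists, control replicate 2 was the highest and Mps1sKO replicate 2 the lowest library. The same order held for *Ccdc155*, *Terb1*, *Terb2* and *Spdya*, and also for *Sun1* and *Sun2*, whose levels were near control. It did not hold for *Spag4*, which was lowest in Mps1sKO replicate 1, or for *Cdk2*, which was highest there. None of the 8 germ cell markers was at 0. In RNA of a whole testis, fewer germ cells and less RNA per germ cell cannot be told apart, and the part of cell numbers in the values of the 9 genes was not tested.

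Each gene was also set relative to these 2 lists in the same library, as a description without a test. Relative to the summed germ cell markers, the log2 ratio of *Ccdc155* was −6.90 and −6.76 in control and −7.22 and −7.11 in Mps1sKO libraries, a difference of −0.33. *Ccdc155* was the 1 member whose ratio lay lower in both Mps1sKO libraries. For *Terb1*, *Terb2*, *Spag4* and *Spdya* the differences were −0.22, −0.14, −0.26 and 0.089, and the groups overlapped. *Sun1*, *Sun2* and *Cdk2* lay higher in both Mps1sKO libraries, with differences of 0.36, 0.37 and 0.48. Their CPM was near control while the sum of the markers was lower, so these higher ratios follow from the division. They are not levels per germ cell. Such ratios were not taken for all loci, so no share of all loci can be set beside the groups that did or did not overlap. *Dazl* alone made up 466 and 583 CPM of the marker sums in control and 463 and 333 CPM in Mps1sKO libraries. Relative to the axis and synapsis genes, the difference of *Ccdc155* was −0.19, with libraries of a genotype at most 0.014 apart. With 2 libraries each and 171 to 390 counts of the gene, so small a spread does not measure the error of this difference. On the same scale *Terb1* was at −0.069, *Terb2* at 0.0066 and *Spag4* at −0.12, all with overlapping groups, and *Spdya* at 0.24 without overlap.

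**Figure D3:**
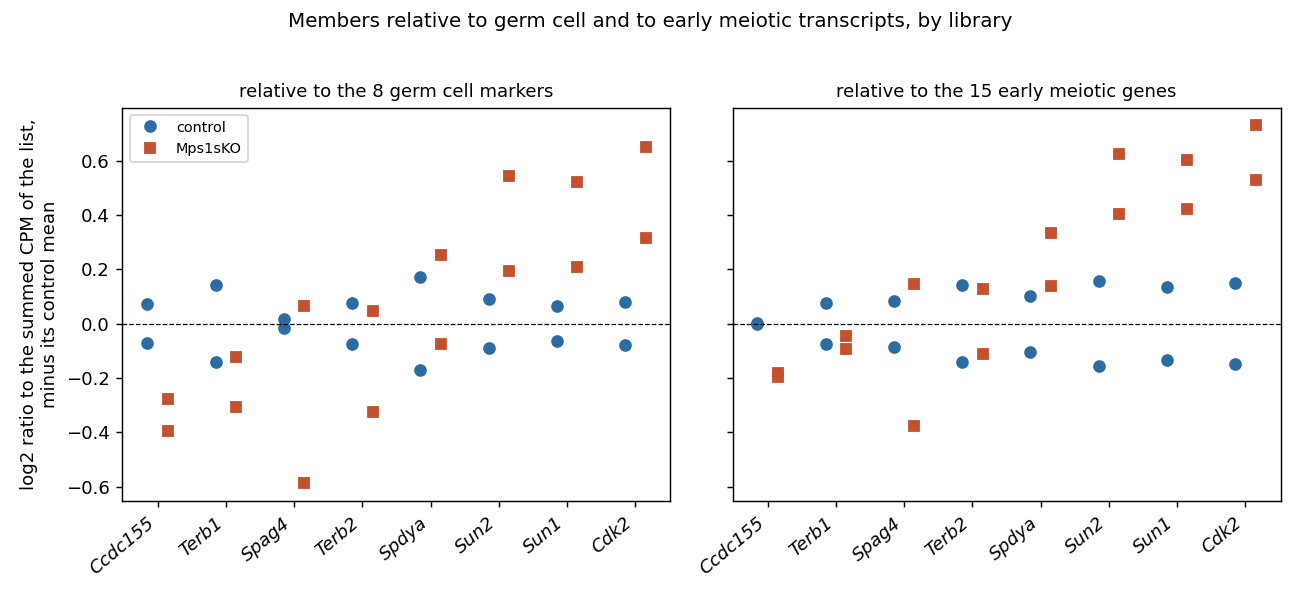
Log2 ratio of each gene to the summed CPM of 8 germ cell markers (left) or of 15 axis and synapsis genes (right), minus the control mean of that gene, with 1 point for each library (circles for control, squares for Mps1sKO). *Ccdc155* lies below its control points in both panels, and *Terb1*, *Terb2* and *Spag4* overlap with control. *Sun1*, *Sun2* and *Cdk2*, whose CPM was near control, lie above control.

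The other genes of the pathway were described from lists that hold no member. Of the 15 axis and synapsis genes, all were lower, with a median of −0.60, and 13 had an unadjusted p below 0.05 with edgeR, against 5.37% of all loci lower. The study's cut-offs were met by 9 of them (*Stag3*, *Sycp1*, *Sycp2*, *Hormad1*, *Syce1*, *Syce3*, *Tex12*, *Dmc1* and *Spo11*), against 0.681% of all loci lower. An adjusted p below 0.05 was reached by 0 with edgeR. This list was chosen with earlier results of these data known. The study also names *Stag3*, *Sycp1*, *Sycp3* and *Syce1* among its changed genes, so these counts are not an independent result. *Spo11*, whose product makes the meiotic DNA breaks, had the lowest value (−0.76). *Rec8*, a cohesin subunit, had the highest (−0.071), with 25.7 ± 4.90 CPM in Mps1sKO and 27.0 ± 3.41 CPM in control testes (SD, n = 2 each). Of all the pathway lists, 1 gene met the study's cut-offs without control replicate 2 and 14 did without control replicate 1, where 0.469% and 1.51% of all loci did.

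The telomere-binding shelterin genes, the anchor for TERB1, had values on both sides of 0. Of 7 tested, 4 were lower and 3 higher with a median of −0.035, and 0 had an unadjusted p below 0.05. They ranged from *Tinf2* (−0.23) to *Pot1b* (0.38). *Terf1*, which encodes TRF1, had 32.9 and 37.3 CPM in control and 31.4 and 29.0 CPM in Mps1sKO testes, and it is named here for its link to TERB1 and not by the rule for genes. Its log2 fold change was −0.22 (adjusted p = 0.586 from edgeR).

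Of the 6 SUN and KASH genes that are not members, 5 were tested, with a median of 0.27 and fold changes on the other side of 0 from *Ccdc155*. For the 4 *Syne* genes both Mps1sKO libraries lay above both controls, and for *Sun3*, a SUN gene of spermatids, the groups overlapped. *Syne2* and *Syne3*, which encode nesprins that join the nucleus to the cytoskeleton, had an unadjusted p below 0.05 with edgeR, against 3.92% of all loci higher, and 0 passed an adjusted p of 0.05. *Syne2* had 559 and 574 CPM in control and 752 and 718 CPM in Mps1sKO libraries (log2 fold change 0.38, adjusted p = 0.494 from edgeR). Per length, *Syne2* was at 21.2 FPKM in control, *Syne3* at 6.48, *Ccdc155* at 5.06, *Syne4* at 2.25 and *Syne1* at 1.30 FPKM. *Sun3*, the lowest of the 5 by fold change (0.17), had 3 to 15 counts, and *Sun5*, also a gene of spermatids, at most 1 count in any library. The 12 Sertoli markers summed to 5040 and 5366 CPM in control and to 6689 and 5886 CPM in Mps1sKO libraries. *Clu* alone made up 2900 and 3586 CPM of these sums in control and 4399 and 3319 CPM in Mps1sKO libraries. Of the Sertoli markers, 11 of 11 tested were higher with a median of 0.32. For 5 of these markers both Mps1sKO libraries lay above both controls, against 20.3% of all loci. Their part in the values of the *Syne* genes was not tested.

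**Figure D4:**
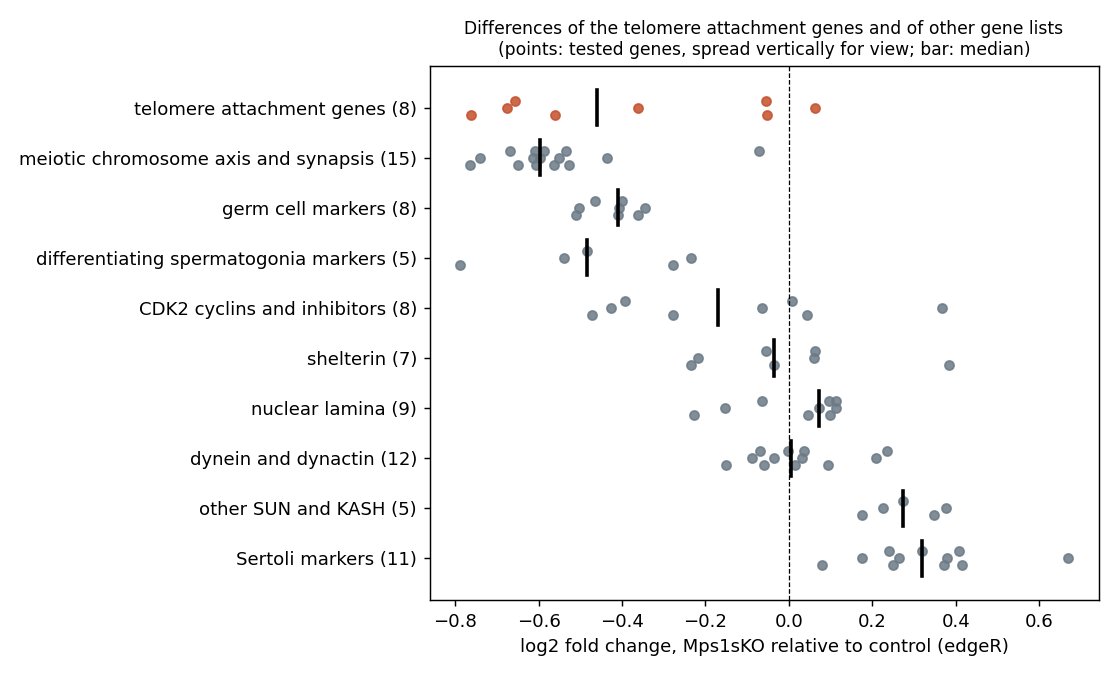
Log2 fold change of Mps1sKO relative to control for each tested gene (points, spread vertically for view) in 10 lists, with the number of tested genes in parentheses and a bar at the median. The telomere attachment genes spread from −0.76 (*Ccdc155*) to 0.062 (*Cdk2*) around a median of −0.46, where the median is −0.60 for the axis and synapsis genes and 0.32 for the Sertoli markers.

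Dynein and dynactin genes, the motor that KASH5 recruits, had a median of 0.0062 over 12 genes, from *Dynlrb1* (−0.15) to *Dctn2* (0.24), and *Dctn2* alone had an unadjusted p below 0.05 with edgeR. For the 9 genes of the nuclear lamina and its partners the median was 0.073, from *Banf1* (−0.23) to *Tmpo* (0.11), and 0 had an unadjusted p below 0.05. Among the cyclins and regulators of CDK2, 3 of 8 were lower at an unadjusted p below 0.05 with edgeR, against 5.37% of all loci. These were the cyclin genes *Ccne1*, *Ccne2* and *Ccna2*, at −0.39, −0.43 and −0.28. They and the *Syne* genes other than *Syne2* are named here after their values were seen. The lowest value was that of *Ccna1*, a cyclin of meiotic cells, at −0.47 with 15 to 33 counts, and the highest that of *Cdkn1a*, a CDK inhibitor, at 0.37. None of these 3 lists held a gene with an adjusted p below 0.05 or one that met the study's cut-offs with edgeR.

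The remaining markers were compared for the same reason. The 5 markers of differentiating spermatogonia were all lower, with a median of −0.49, and 1 of them, *Stra8*, met the study's cut-offs with edgeR. The 9 markers of undifferentiated spermatogonia had a median of 0.031, with 4 lower and 5 higher, and 3 of the lower ones had an unadjusted p below 0.05 with edgeR. Leydig, peritubular myoid, macrophage and endothelial markers had medians between −0.12 and 0.18. The spermatid markers summed to 0.891 to 1.46 CPM per library.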

How the data were processed

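The authors deposited a table of read counts per gene without normalization, with FPKM values (counts scaled by the authors to gene length and library size) beside them. The submitters' processing notes name HISAT2 2.0.5, featureCounts, DESeq2 1.16.1 and mm10, and the strand setting is not given in the sources used here. All 55536 Ensembl identifiers lie at their GENCODE M21 position, and 284 loci have none. The test was edgeR 4.0.16 under R 4.3.3 (filterByExpr, TMM, quasi-likelihood F test of the counts on genotype, two-sided, Benjamini-Hochberg over 20561 loci). FPKM were recomputed from TMM-scaled counts and the deposited gene lengths. DESeq2 1.42.0 and limma 3.58.1 (voom) were alternatives, with other scalings and filters, annotated genes only, the replicate number as a block, and each library left out. In a fit without 1 library, the lone library was assumed to vary like the other genotype. The scripts were tested on simulated counts. Neither labels nor methods name a batch.

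The members and lists were chosen with earlier results of these data known. Named were all members, *Ttk*, pathway genes past the study's cut-offs or else the lowest and highest of a list, markers with few counts and loci overlapping a member.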

Additional observations from a re-analysis of the deposited data

How the results depend on the processing

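No member reversed its direction in any of the 12 alternative analyses planned. The 2 members that met the study's cut-offs became 1 with DESeq2, with the DESeq2 size factors, with at least 10 counts in every library and with the replicate block, where 0.267%, 0.647%, 0.691% and 0.486% of all loci were lower by these cut-offs. Without the filter on low counts, 1 member and 11 lower and 1 higher pathway genes had an adjusted p below 0.05 with edgeR. Of the 35262 loci with any count, which that fit tested, 0.712% were lower and 0.394% higher by that rule. At an unadjusted p below 0.05 with edgeR, 6 pathway genes were higher in that fit, against 3.72% of all loci. DESeq2 gave 1 pathway gene an adjusted p below 0.05. With the replicate block, 3 pathway genes met the study's cut-offs. The log2 fold change of *Ttk* had an adjusted p over 0.05 with the DESeq2 size factors (−1.26), with at least 10 counts in every library (−1.27), with limma-voom (−1.26), with annotated genes only (−1.26) and with the replicate block (−1.26). The cause of these shifts was not tested.

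The replicate numbers are not stated to mark a shared litter or day, and libraries with the same number deviated in opposite directions (correlation −0.24 across 20561 loci). With the crossed pairing, chosen after seeing the data, 1 member and 11 lower and 1 higher pathway genes had an adjusted p below 0.05 with edgeR. Of all loci, 1.48% were lower and 1.2% higher by that rule. At an unadjusted p below 0.05 with edgeR, 7 pathway genes were higher, against 9.13% of all loci.

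With each library left out in turn, 0 to 2 members had an adjusted p below 0.05, 0 to 3 met the study's cut-offs and 2 to 5 were lower at an unadjusted p below 0.05, and their median lay between −0.61 and −0.21. In the same fits 0.0512% to 0.587% of all loci were lower at an adjusted p below 0.05, 0.469% to 1.51% by the study's cut-offs and 2.28% to 6.99% at an unadjusted p below 0.05. Of the pathway genes, 0 to 10, 1 to 14 and 11 to 16 were lower by these 3 rules in that order, and 2 to 4 were higher at an unadjusted p below 0.05. *Ttk* lay between −1.37 and −1.15. *Majin*, with at most 2 counts, was given no fold change.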
